A study of Mus musculus with 6 samples.

Results

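The change examined here is the one left when mouse embryonic fibroblasts (MEFs) without Sting and Trex1 (STKO cells) received a synthetic double-stranded DNA by transfection, the interferon stimulatory DNA (ISD). It was read from 2 of the 6 Illumina expression arrays of the series, STKO ISD and STKO mock. All probes detected on at least 1 of the 2 arrays were taken, which gave 16325 of 45281 probes, and a probe counted as detected where more than a fraction of 0.99 of the array's negative controls lay below it. Of these, 14191 matched 1 gene and together stood for 9308 genes. On both arrays 15076 were detected, 794 on ISD only and 455 on mock only.

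The series asks how DNA inside the cell drives inflammation through Sting. Its other arrays carry Trex1-deficient (TKO) and wild-type (WT) MEFs, each with and without ISD, so that every group holds 1 array. All cells came from embryos of mixed C57BL6/129Sv strain, and cells were exposed to ISD for 6 h at 4 µg/ml. With 1 array a group there is no replicate check and no test, so values describe these arrays. The labels do not say whether the cells of a group came from 1 embryo or several. The arrays detected 14488 to 16177 probes each, at a median raw intensity of 76.8 to 85.3. Groups follow the sample titles. The genotype field of the labels gives Sting +/+ for both STKO arrays and Sting -/- for both WT arrays, which the titles contradict, and it differs between the TKO ISD and TKO mock arrays.

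Sting is an adaptor of the endoplasmic reticulum. It binds the cyclic dinucleotide that the DNA sensor cGAS makes and passes the signal to the kinase TBK1 and the factors IRF3 and NF-kB, which switch on interferon-β, chemokines and interferon-stimulated genes. Trex1 is a DNA exonuclease that degrades cytosolic DNA, and cells that lack it can hold a standing interferon response. Interferon-stimulated genes are commonly bound at an interferon-stimulated response element (ISRE), and inflammatory genes at an NF-kB (kB) site.

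The promoters of 4 genes that were 2-fold or more higher with ISD in STKO cells are shown because they hold these letters. Each is the 250 bases before the RefSeq start, read 5′ to 3′ on the gene's own strand (build GRCm38.p6). Capitals mark the letters GAAANNGAA, taken from the ISRE, in Cxcl10 and Ifit3, and GGNNTTTCC, taken from the kB site, in Cxcl2 and Cxcl1, each searched on both strands and with no overlap between them in these promoters. The windows are chr5:92348890-92349139 (- strand) for Cxcl10, chr19:34583279-34583528 (+ strand) for Ifit3, chr5:90903649-90903898 (+ strand) for Cxcl2 and chr5:90890995-90891244 (+ strand) for Cxcl1.
Cxcl10: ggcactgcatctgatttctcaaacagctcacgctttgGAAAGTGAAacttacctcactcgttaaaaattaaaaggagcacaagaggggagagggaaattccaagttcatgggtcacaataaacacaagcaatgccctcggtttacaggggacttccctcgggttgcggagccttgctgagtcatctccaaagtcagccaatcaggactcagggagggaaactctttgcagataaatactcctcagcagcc
Ifit3: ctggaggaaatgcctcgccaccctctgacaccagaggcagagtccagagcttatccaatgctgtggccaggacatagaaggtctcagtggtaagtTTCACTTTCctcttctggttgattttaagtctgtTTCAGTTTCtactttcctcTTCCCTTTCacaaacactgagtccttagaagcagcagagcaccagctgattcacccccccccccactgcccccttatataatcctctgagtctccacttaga
Cxcl2: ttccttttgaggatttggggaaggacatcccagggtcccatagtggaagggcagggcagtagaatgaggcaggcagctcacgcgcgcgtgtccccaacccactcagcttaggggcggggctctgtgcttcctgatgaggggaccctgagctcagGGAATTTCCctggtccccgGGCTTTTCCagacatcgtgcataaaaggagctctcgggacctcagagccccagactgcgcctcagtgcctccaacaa
Cxcl1: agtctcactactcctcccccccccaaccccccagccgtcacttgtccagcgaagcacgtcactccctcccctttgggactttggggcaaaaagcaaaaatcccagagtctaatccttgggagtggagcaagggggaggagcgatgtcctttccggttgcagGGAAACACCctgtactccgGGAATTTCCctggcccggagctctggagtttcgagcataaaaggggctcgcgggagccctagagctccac
Of the 50 named genes 2-fold or more higher with ISD in STKO cells, 41 had a promoter in the table. The ISRE letters stood in 5 of the 41 (12.2%), namely Cxcl10, Ifit3, Rsad2, Ifi205 and Mfap2, against 8.18% of the 27025 genes with a promoter and 7.28% of the 7579 genes with a detected probe. The kB letters stood in 11 of the 41 (26.8%), against 5.62% and 6.32%. These were Cxcl1, Cxcl2, Cxcl10, Icam1, Tnfaip3, Ifnb1, Acod1, Ccrl2, Ifit3, Rsad2 and Olfr1443. Nfkbie, Traf1 and Tnf, among others, did not hold them. A match is a description of these letters in this window and not a binding site.

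The targeted genes were read first. Trex1 had 1 probe at 6.43 on STKO ISD and 6.53 on STKO mock, against 8.95 and 8.08 on the TKO arrays and 12.14 and 9.29 on the WT arrays. Levels and differences are on a log2 scale of background-corrected intensity with an offset of 16, which understates changes of dim probes. Another Trex1 probe stood at 8.09 and 7.56 on STKO ISD and mock, and again higher in TKO, at 9.84 and 9.36, and highest in WT, at 12.62 and 10.00. The Sting1 probe stood at 5.64 on STKO ISD and 5.81 on STKO mock, against 8.06 and 7.13 in TKO cells and 8.92 and 7.34 in WT cells. Sting1 was thus lowest on the arrays titled STKO, and Trex1 was lower on the STKO and TKO arrays than on the WT arrays under the same treatment. The genotype field does not follow that order for Sting1. Where these probes lie relative to the deleted parts is not given in the sources used here, so a remaining signal checks nothing.

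The cells carried markers of fibroblasts and of macrophages. Of 19 fibroblast and matrix genes with a probe, 17 to 18 were detected on each of the 6 arrays. All 11 macrophage genes with a probe were detected on all 6. Lyz2, the lysozyme of myeloid cells, had 1 probe at 15.21 on STKO ISD and 15.18 on STKO mock, and Adgre1, the F4/80 antigen, had 1 at 13.41 and 13.43. Over the 6 arrays the summed background-corrected intensity of the macrophage list ranged from 145822 to 167110. The macrophage sum was 155235 on STKO ISD and 152378 on STKO mock. The fibroblast list summed to 75229 and 70599, and over the 6 arrays ranged from 49440 on TKO ISD to 90621 on WT mock. Both sums were close on the STKO pair. Endothelial genes were detected for 2 of 10, epithelial genes for 0 to 2 of 9 and muscle genes for 1 to 3 of 8. Neural genes were detected for 2 to 4 of 9, and cartilage and bone genes for 4 to 5 of 7. In bulk RNA, fewer cells of a type and less RNA per cell cannot be told apart.

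A small set of probes still differed between STKO ISD and STKO mock, most of them higher with ISD. With 1 array a side, ISD and other differences between the 2 arrays cannot be told apart. At 2-fold or more 77 probes differed (0.472% of those tested), of which 66 were higher with ISD (0.404%) and 11 were lower (0.0674%). The WT pair gave 1243 higher (7.46%) and 905 lower (5.43%), and the TKO pair 639 higher (3.98%) and 235 lower (1.46%). The median difference over all 16325 probes was -0.01 in STKO cells. The higher probes stood for 50 named genes, led by chemokines (Cxcl10, Cxcl2), interferon-stimulated genes (Rsad2, Ifit3, Cmpk2), NF-kB targets (Icam1, Tnfaip3) and the p53 target Mdm2. Of the 66, 46 were detected on both arrays and 20 only with ISD. Of the 11 lower probes, 2 were detected on both and 9 only on mock.

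**Figure D1:**
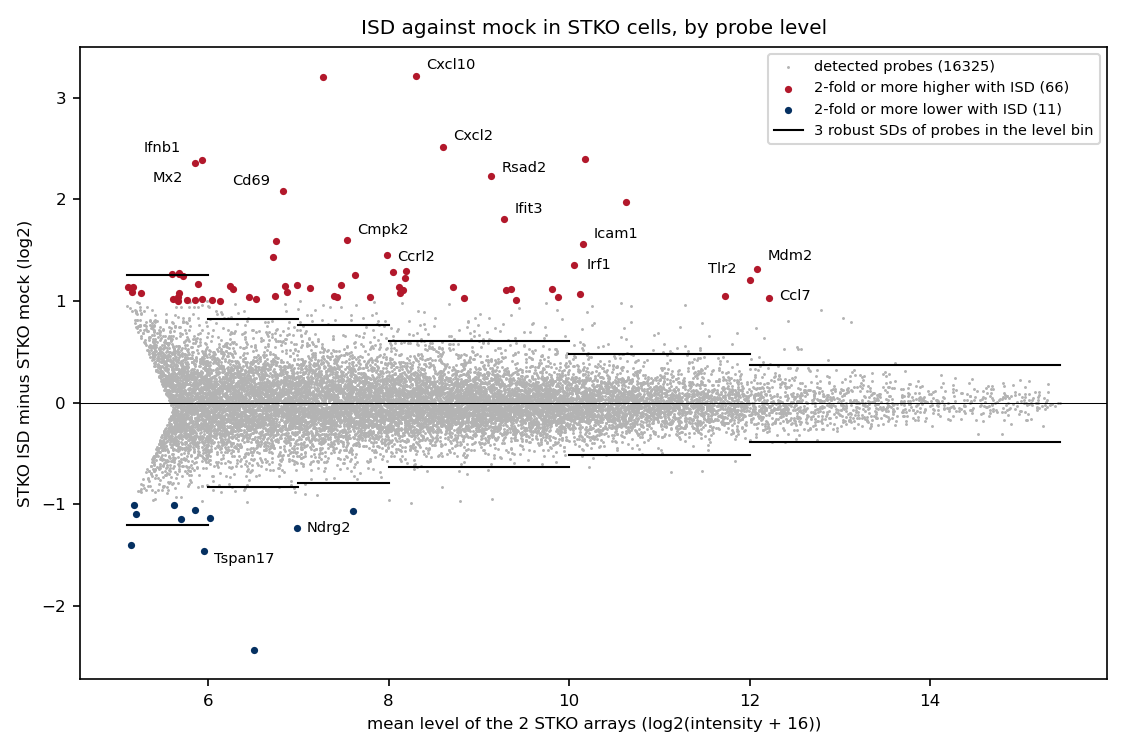
Difference between STKO ISD and STKO mock (log2, vertical) against the mean level of the 2 arrays (log2, horizontal), 1 point a probe. Black lines lie 3 robust SDs either side of the median of each level bin, red points are the 66 probes 2-fold or more higher with ISD and blue points the 11 lower. Cxcl10, Cxcl2 and Rsad2 lie far above the band at middle levels, and most lower probes lie at the dim end.

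The size of this change was set against the spread of the same pair of arrays. The robust SD (the scaled median absolute deviation) of the difference was 0.23, or 1.17-fold, against 0.35 for the TKO pair and 0.46 for the WT pair. Spread depended on level. It was 0.41 for probes with a mean level under 6, 0.21 between 8 and 10, and 0.13 at 12 and over. This spread holds array noise and any small true change of most probes together.

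Probes of the same gene gave a second measure. On 3131 genes with 2 or more probes detected on both STKO arrays (7505 probes), the pooled SD of the difference within a gene was 0.21, or 1.16-fold. The range within a gene was 0.23 at the median and 0.67 at the 95th percentile. The within-gene value is an ordinary SD over probes detected on both arrays. The value of 0.23 over all 16325 probes is a robust SD, so the 2 are not directly comparable.

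The 2 tails were unequal beyond this spread. At 4 or more robust SDs of their level bin, 83 probes lay above the bin's median and 9 below it, at 5 or more 44 and 1, and at 8 or more 12 and 1. By fold, 12 probes were 3-fold or more higher and 1 was lower, and 2 were 8-fold or more higher, both of Cxcl10. Without background correction, which shrinks differences of dim probes, 22 of the 66 stayed 2-fold or more higher, among them probes of Cxcl10, Cxcl2, Rsad2, Ifit3, Icam1, Irf1, Tlr2 and Mdm2. Klf4 at 0.97, Chac1 at 0.96, Ifit2 at 0.92, Tnf at 0.91, Usp18 at 0.89, Nfkbie at 0.88 and Traf1 at 0.73 fell short of 2-fold on that scale. At 1.5-fold the tails were closer, with 474 higher (2.9%) and 259 lower (1.59%). Near the detection threshold the choice of probes was close to the noise: the 828 probes whose better fraction lay between 0.99 and 0.995 had a median brighter intensity of 114.3 and a median difference of 0.17. The 510 probes just outside, between 0.985 and 0.99, had 109.3 and -0.04.

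Second probes gave a partial check. For 20 of the named genes higher with ISD, 2 or more probes were detected on both arrays, 43 in all, of which 26 were themselves among the 66 that chose the genes. Of the other 17, 15 were above 0 and 8 were 1.5-fold or more higher, with a median of 0.46. Every probe detected on both arrays was 2-fold or more higher for 5 genes, namely Cxcl10, Cxcl2, Ifit3, Irf1 and Gpr84. Mfap2, a protein of elastic microfibrils, had its called probe not detected on mock, and its 2 other probes differed by -0.08 and 0.00. The genes with a single called probe among several were otherwise less uniform, as with the reprogramming factor Klf4, whose 3 probes differed by 0.02 to 1.14.

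Chemokines held the largest differences. Cxcl10, a T cell attractant induced by interferon, had a level of 9.91 on STKO ISD, against 6.70 on STKO mock, a 9.28-fold difference. Its other probe stood at 8.88 and 5.68 (9.21-fold). Both lay 12 or more robust SDs above their bin's median. In WT cells the first probe stood at 15.32 with ISD and 8.74 on mock, a difference of 6.58, and in TKO cells at 15.32 and 14.54. The TKO mock array was thus already near the level of the ISD arrays, and STKO ISD lay 1.17 above WT mock.

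Cxcl2, a neutrophil attractant, behaved otherwise across genotypes. It stood at 9.86 on STKO ISD and 7.34 on STKO mock (5.72-fold), against 9.82 and 8.80 in TKO cells and 8.94 and 8.12 in WT cells. Its second probe stood at 11.38 and 8.98 on the STKO arrays (5.25-fold). The STKO difference of 2.52 was larger than those of 1.02 in TKO and 0.82 in WT cells, with STKO mock the lowest of the 6 levels. That difference between genotypes was not tested.

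The related attractant Cxcl1 stood at 10.66 on STKO ISD and 9.59 on STKO mock, with differences of 1.06 in STKO, 1.08 in TKO and 1.37 in WT cells. Ccl7, a monocyte attractant, stood at 12.73 and 11.70 on the STKO arrays (2.04-fold). Ccl2, the main monocyte attractant, just missed 2-fold, at 11.77 and 10.81. Of 21 detected chemokine probes, 6 (4 genes) were 2-fold or more higher, beside 0.404% of all probes. At 1.5-fold 10 were higher, beside 2.9%, and 0 were lower, beside 1.59%. Their median was 0.56, beside -0.01 for all probes. Not all chemokines moved. Ccl5, chosen after its values were seen, stood at 9.15 on STKO ISD and 9.33 on STKO mock, against 14.74 and 9.36 in WT cells.

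**Figure D2:**
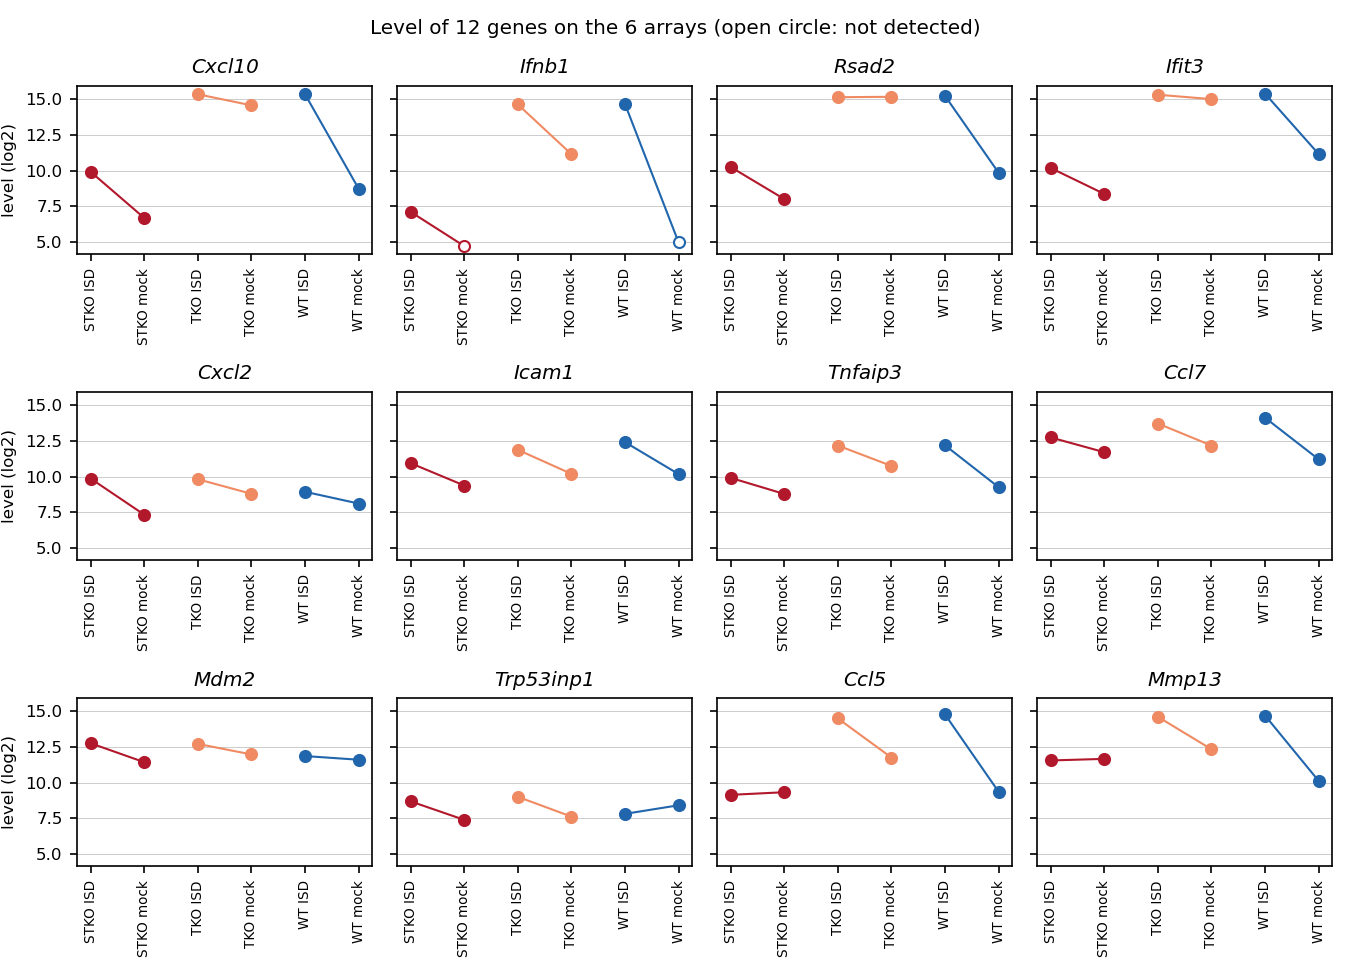
Level (log2) of 12 genes on the 6 arrays, 1 probe a gene, with lines joining ISD to mock within a genotype and open circles for probes not detected. Cxcl10, Ifnb1, Rsad2 and Ifit3 lie far lower on STKO ISD than on WT ISD, Cxcl2 and Mdm2 do not, and Ccl5 and the collagenase gene Mmp13 are level in STKO cells.

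Interferon-β itself was dim in STKO cells and was detected there only with ISD. Ifnb1 stood at 7.12 on STKO ISD and was not detected on STKO mock (4.74), a difference of at least 2.78-fold, where "at least" counts from the dimmest detected probe of the mock array. In WT cells it stood at 14.63 with ISD and was not detected on mock, a difference of at least 556-fold. In TKO cells it stood at 14.61 and 11.14. Without background correction the STKO difference of Ifnb1 was 1.17. Interferon-α genes gave no call in STKO cells: of 18 probes of 9 genes, 2 were detected on an STKO array and 0 were 2-fold higher, against 15 in WT and 10 in TKO cells.

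Interferon-stimulated effectors were higher for some members only. Rsad2 (viperin, an antiviral enzyme) stood at 10.25 on STKO ISD and 8.02 on STKO mock, a 4.69-fold difference. Ifit3, an antiviral protein with tetratricopeptide repeats, stood at 10.18 and 8.37 (3.50-fold), with its second probe 2.70-fold higher. Cmpk2, a mitochondrial nucleotide kinase encoded beside Rsad2, stood at 8.34 and 6.74 (3.02-fold). These 3 had differences of 5.35, 4.20 and 5.94 in WT cells.

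In TKO cells Rsad2 stood at 15.11 with ISD and 15.14 on mock, and Ifit3 at 15.28 and 14.98, so both were near their highest level without ISD. Ifit2, of the same family as Ifit3, differed by 1.26 between STKO ISD and STKO mock (2.39-fold). Mx2, an antiviral GTPase, stood at 7.03 and was not detected on mock, a difference of at least 2.60-fold. Oasl2, of the oligoadenylate synthetase family, was at least 1.03-fold higher on a probe not detected on mock, and its probe detected on both arrays stood at 9.61 on STKO ISD and 9.55 on STKO mock. Over 49 detected probes of this list, 8 (7 genes) were 2-fold or more higher, 16.3% beside 0.404% of all probes. The median was 0.16, against 2.46 in WT cells, where 44 of the same probes were 2-fold or more higher, beside 7.46% of the probes tested there.

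The transcription factor Irf1 was 2.06-fold to 2.55-fold higher on the 4 probes detected on both arrays, for example at 10.73 on STKO ISD and 9.38 on STKO mock. Usp18, which removes ISG15 and damps interferon signalling, stood at 9.35 and 8.32 (2.04-fold). Of 25 probes for interferon signalling genes, 5 were 2-fold or more higher (beside 0.404% of all probes), all of Irf1 and Usp18. The interferon-inducible GTPases gave 0 of 11 at 2-fold but 5 of 11 at 1.5-fold, beside 2.9% of all probes at 1.5-fold. Their median was 0.58 in STKO and 4.78 in WT cells, beside -0.01 and -0.13 for all 16325 probes. The STKO median was 0.32 without background correction, 0.35 in the authors' deposited log2 table and 0.40 over the 9 probes detected on both arrays. Gbp3, a guanylate-binding protein, stood at 8.63 and 7.83 on the STKO arrays. Antigen presentation genes had a median of -0.07 and 0 of 33 probes at 2-fold, and nucleic acid sensors 0.07 and 0 of 24. Counts of 0 are near the 0.472% of all probes that differed 2-fold. At 1.5-fold, 1 antigen presentation probe (3.03%) and 3 sensor probes (12.5%) were higher, beside 2.9% of all probes.

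Of the genes with the largest WT increase, some reached 2-fold in STKO cells and others were not detected there. In the interferon and chemokine lists 12 such genes were taken, and 6 of them had a probe detected on an STKO array. Of these, 3 (Ifnb1, Cxcl10 and Ifit2) were 2-fold or more higher in STKO cells, where 0.404% of all probes were. The other 3 of the 6 were detected on at least 1 STKO array but not called. Gbp5 stood at 5.58 on STKO ISD and was not detected on mock. Gbp2, a guanylate-binding protein, had 1 of 3 probes detected, at 10.23 on STKO ISD and 9.99 on STKO mock, and Ifna6 had 1 of 4, at 6.80 and 6.84. Both had a probe with a larger WT difference that was not detected on either STKO array. For 6 genes no probe was detected on either STKO array, namely Cxcl9, Ifna5, Ifna11, Oasl1, Ifna2 and Mx1. Cxcl9, another interferon-induced T cell attractant, stood at 15.02 on WT ISD and 6.32 on WT mock. Probes without detection give only a bound, so a small induction of these 6 was not detectable on these arrays.

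NF-kB targets and feedback genes formed a broad group of small differences. Icam1, an adhesion receptor for leukocytes, stood at 10.93 on STKO ISD and 9.38 on STKO mock (2.94-fold), against 11.87 and 10.19 in TKO cells and 12.40 and 10.17 in WT cells. Tnfaip3 (A20, a feedback inhibitor of NF-kB) stood at 9.91 and 8.79 on the STKO arrays (2.17-fold). Nfkbie, an inhibitor of the IkB family, stood at 8.72 and 7.61 (2.16-fold), and the adaptor Traf1 at 7.95 and 6.91 (2.06-fold). The second Traf1 probe stood at 7.83 and 7.65, a difference of 0.18. For Icam1 the STKO difference of 1.56 was near those of 1.68 in TKO and 2.23 in WT cells.

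Of 36 detected probes in this list, 5 (4 genes) were 2-fold or more higher, 13.9% beside 0.404% of all probes. At 2-fold 0 were lower, beside 0.0674% of all probes. At 1.5-fold or more 14 were higher, 38.9% of the list beside 2.9% of all probes. The median was 0.40, against 0.65 in TKO and 1.29 in WT cells. Nfkbia, the main IkB inhibitor, stood just under 2-fold on both probes, at 0.95 and 0.86. Saa3, an acute-phase protein, ran the other way, at 7.75 on STKO ISD and 8.74 on STKO mock. Tnf, the inflammatory cytokine, stood at 9.91 and 8.91 (2.01-fold), and Il6 at a difference of 0.67.

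Of the genes outside the lists, Cd69 and Ccrl2 were among the 12 largest differences. Tlr2, Gpr84 and Acod1 were chosen after their values were seen. Cd69, an early activation antigen, stood at 7.86 on STKO ISD and 5.79 on STKO mock (4.22-fold), against 15.02 and 7.54 in WT cells. Ccrl2, an atypical chemokine receptor, was 2.74-fold higher. Tlr2, a receptor for bacterial lipoproteins, stood at 12.61 and 11.40 (2.31-fold), with differences of 1.21 in STKO, 1.17 in TKO and 1.04 in WT cells. The fatty acid receptor Gpr84 was 2.16-fold higher, and Acod1, which makes itaconate in macrophages, 2.06-fold. The macrophage list itself had a median difference of -0.02, with 0 of 20 probes at 2-fold in either direction, beside 0.472% of all probes.

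**Figure D3:**
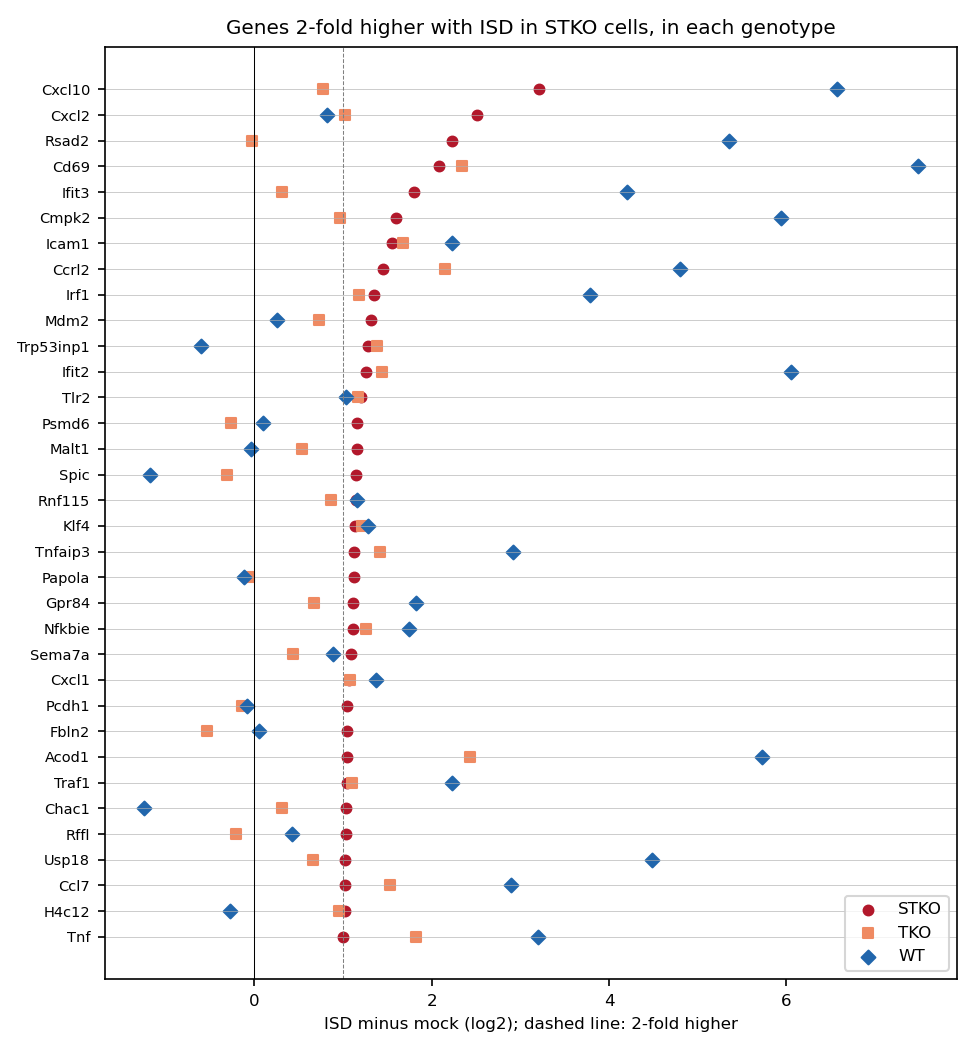
Difference between ISD and mock (log2) in STKO (red circles), TKO (orange squares) and WT cells (blue diamonds) for the 34 named genes 2-fold or more higher in STKO cells and detected on both STKO arrays. Genes run from the largest STKO difference at the top, Cxcl10 and Cxcl2, to Tnf at the bottom. Cd69, Cxcl10, Ifit2 and Cmpk2 lie furthest to the right in WT cells.

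Most targets of the tumour suppressor p53 showed small positive differences, of which 2 probes of 33 reached 2-fold. Mdm2, the ubiquitin ligase that degrades p53, stood at 12.74 on STKO ISD and 11.42 on STKO mock (2.49-fold), and its second probe detected on both arrays at 12.82 and 12.02. Trp53inp1, a stress-induced p53 cofactor, stood at 8.69 and 7.40 (2.44-fold), and its second probe at 9.37 and 8.54. In WT cells these 2 genes differed by 0.26 and -0.60 on the called probes. Mdm2 lay 10.5 robust SDs above the median of its level bin.

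Cdkn1a (p21, an inhibitor of cyclin-dependent kinases) was just short of 2-fold on all 3 probes, at 0.91 to 0.98, for example at 13.25 on STKO ISD and 12.34 on STKO mock. Sesn2, a stress-induced sestrin, stood at 7.45 and 6.53, the death receptor Fas at 9.53 and 8.69, and cyclin G1 (Ccng1) at 10.64 and 9.87. Over 33 detected probes of 16 genes, 2 were 2-fold or more higher, 16 were 1.5-fold or more higher (48.5%, beside 2.9% of all probes), 1 was 1.5-fold lower, and 29 were above 0. The median was 0.57 in STKO, 0.65 in TKO and 0.02 in WT cells, beside -0.01, -0.07 and -0.13 for all 16325 probes. Of the same 33 probes, 10 were 2-fold or more higher in TKO cells and 7 in WT cells. Over all 16325 probes those shares were 2.55% and 5.65%.

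Counted gene by gene, as the median over a gene's detected probes, 15 of 16 p53 targets were above 0 in STKO cells, 11 in TKO and 8 in WT cells. Sesn1 was the exception in STKO cells, at -0.50, against -1.997 in TKO and -3.16 in WT cells. Gadd45a, a growth arrest gene, differed by 0.55 in STKO, -0.71 in TKO and -0.75 in WT cells. Cdkn1a and Fas were higher in all 3 genotypes, with 1.65 and 2.43 in WT cells. Whether the STKO and WT differences of this group differ was not tested.

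**Figure D4:**
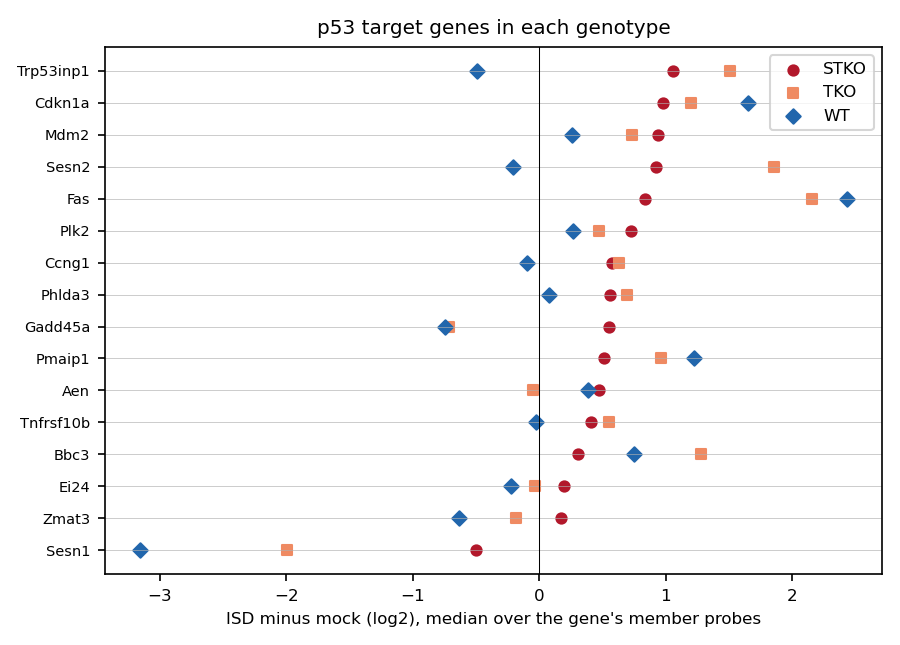
Difference between ISD and mock (log2, median over the gene's detected probes) of 16 p53 target genes in STKO (red circles), TKO (orange squares) and WT cells (blue diamonds). In STKO cells 15 of the 16 lie above 0, and Sesn1 lies below 0 in each genotype.

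Other stress lists had smaller medians than the p53 list, though not all had smaller shares at 2-fold. For the integrated stress and unfolded protein response, 2 of 36 probes were 2-fold or more higher (5.56%, beside 0.404% of all probes) and 8 were 1.5-fold or more higher (22.2%, beside 2.9%), with a median of 0.23. Chac1, a glutathione-degrading enzyme of this response, stood at 10.40 on STKO ISD and 9.36 on STKO mock (2.05-fold), and Ddit3 (CHOP) at 9.91 and 8.98. Trib3, a pseudokinase induced by ATF4, was at least 1.45-fold higher. Immediate early genes had a median of 0.32 over 27 probes. Of these, 2 were 2-fold or more higher (7.41%, against 6.06% of the p53 probes) and 5 were 1.5-fold or more higher (18.5%). Klf4 was 2.20-fold and Fosb at least 1.63-fold higher. Mt2, a metallothionein, was at least 1.59-fold higher.

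Heat shock genes had a median of 0.01, oxidative stress genes 0.16, cell cycle genes -0.12, matrix and fibroblast genes 0.06 and housekeeping genes -0.05. Each had 0 probes at 2-fold, beside 0.472% of all probes. None of the response, signalling, stress and cell type lists held a probe 2-fold lower in STKO cells. Only 11 of all 16325 probes (0.0674%) were lower, so counts of 0 are near that share.

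**Figure D5:**
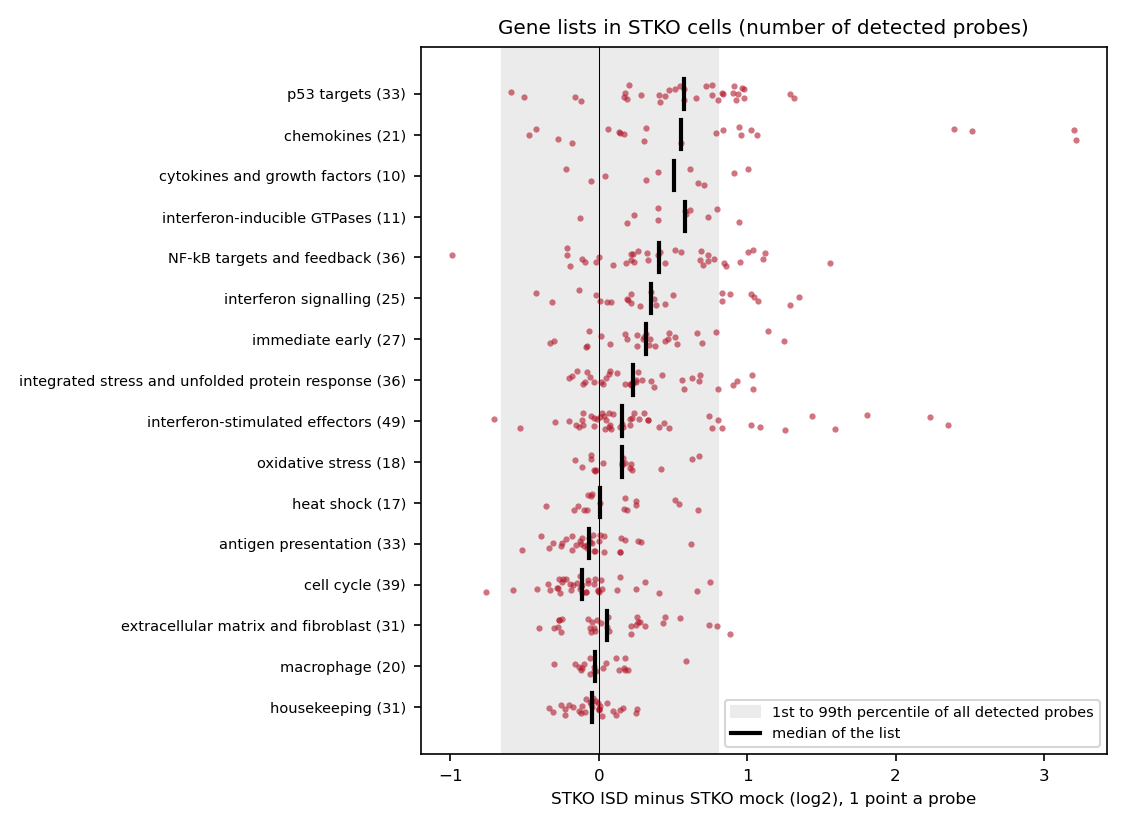
Difference between STKO ISD and STKO mock (log2) for each detected probe of 16 gene lists, with the median as a black bar and the 1st to 99th percentile of all 16325 probes (-0.65 to 0.81) shaded. The p53, chemokine and cytokine lists have medians of 0.51 to 0.57, the interferon GTPase list has 0.58 here and 0.32 without background correction, and the macrophage and housekeeping lists lie around 0.

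The higher probes divided by what they did on the arrays of the other genotypes, none of which enter the STKO pair. Of the 66, 23 (18 genes) were 2-fold or more higher in all 3 genotypes, with median differences of 1.21 in STKO, 1.36 in TKO and 3.19 in WT cells. A further 13 (10 genes) were higher in STKO and WT but not TKO cells, among them Cxcl10, Rsad2 and Usp18. Only a Cxcl2 probe and Trp53inp1 were higher in STKO and TKO but not WT cells. The 36 shared with WT made up 54.5% of the STKO probes and 2.9% of the WT probes, and the 25 shared with TKO made up 37.9% and 3.91%. Of all 16325 STKO probes, 5.65% were 2-fold or more higher in WT cells and 2.55% in TKO cells.

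The remaining 28 probes (23 genes) were 2-fold higher in STKO cells alone, and 15 of them were detected on both STKO arrays. In this group 3 kept 2-fold without background correction: Mdm2, the second Cxcl2 probe and 1 unnamed probe, ILMN_2735350. The Cxcl2 probe was also higher in TKO cells, by 0.84, and in WT cells, by 0.83, short of 2-fold. Mdm2 differed by 0.74 in TKO and 0.26 in WT cells. ILMN_2735350 stood at 11.61 on STKO ISD and 9.64 on STKO mock, against 8.34 and 9.46 in TKO cells and 7.27 and 9.92 in WT cells. The others were mostly dim or single probes, such as those of Psmd6, Papola and Pcdh1, all chosen after their values were seen, whose second probes differed by 0.46, 0.14 and 0.40.

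The probes 2-fold or more higher with ISD in WT cells (1243) had a median STKO difference of 0.09, with quartiles of -0.08 and 0.32. Of them 64.1% were above 0, against 48% of all STKO probes. The probes higher with ISD in TKO cells (639) had a median of 0.13 and 67.6% above 0. The median over all STKO probes was -0.01. Probes 2-fold or more lower with ISD in WT cells (905) had an STKO median of -0.09.

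Many of the probes shared with WT cells started from a lower level in STKO cells. Of the 36 probes higher in STKO and WT cells, 32 were lower on STKO mock than on WT mock, 16 of them by 2-fold or more, beside 7448 of all 16325 probes lower and 253 by 2-fold. A low STKO mock level also favours being among the 36. After ISD, 25 of the 36 lay above WT mock on the STKO array, 6 by 2-fold or more, with a median of 0.64. Of all 16325 probes, 8620 lay above it, 205 by 2-fold or more, with a median of 0.02. A high STKO ISD level and a low WT mock level favour being among the 36 as well. Part of this position thus follows from how the 36 were chosen. For the 13 of them in the interferon lists, all 13 were lower on STKO mock than on WT mock, and 8 lay above WT mock after ISD. Ifit3 reached 10.18 on STKO ISD, against 11.16 on WT mock, and Usp18 9.35, against 10.06. All 5 of the 36 probes that were in the NF-kB list lay above WT mock after ISD, with the same limit.

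Lower probes were few and dim. Ndrg2, a stress-responsive gene of the NDRG family, was the only named gene detected on both arrays, at 6.37 on STKO ISD and 7.60 on STKO mock (2.34-fold lower). Tspan17, a tetraspanin, was not detected on STKO ISD and was at least 2.15-fold lower. Atxn7l3, Esm1 and ND5 were at least 1.62-fold, 1.75-fold and 1.46-fold lower. The largest decrease belonged to an unnamed probe, ILMN_2633179, at 5.29 and not detected on STKO ISD, against 7.72 on STKO mock, at least 4.44-fold lower. None of the 11 was called 2-fold lower in WT or TKO cells. Of all probes tested there, 5.43% were lower in WT and 1.46% in TKO cells. For 11 probes, a count of none is near those shares and does not set these probes apart. Several of the 11, such as Atxn7l3 and Esm1, were detected on no WT or TKO array and could not be called there.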

How the data were processed

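RNA of 6 arrays was compared, 1 a group, and the precision is limited by that number. The authors deposited a table of intensity values named as non-normalized, with a fraction for each probe headed as a detection p-value, taken here as the fraction of negative controls dimmer than the probe. The scanner software is not given in the sources used here. A second deposited table of log2 values, centred on each probe's median over the arrays by the authors with a normalization not stated and array medians of -0.01 to 0, served as an alternative.

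Intensities were processed with neqc of limma 3.58.1 in R 4.3.3 (background correction, offset of 16, quantile normalization of the 6 arrays, log2). Probes detected on at least 1 array of a pair were compared at 2-fold, and counted in Python 3.11.15 with pandas 2.3.3. The pipeline was tested on simulated data. Probe names came from GEO's platform annotation, updated through Entrez identifiers to RefSeq: 34885 probes had 1 gene, 18 several and 10378 none.

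The text names, for each direction, the 12 genes with the largest difference, every called gene of the 29 lists, the targeted genes and the 12 interferon or chemokine genes with the largest WT increase. Other genes were named after their values were seen. Members and lists were chosen with earlier results of these data known, and the promoter letters were set after seeing the data. Some listed genes without a named probe were not analysed here. Alternatives were another background correction, offset, scaling, array set, threshold, detection filter and table.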

Additional observations from a re-analysis of the deposited data

Results flagged for a closer look

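4 probes moved in opposite directions by 2-fold or more in STKO cells and in another genotype. None of these differences was tested, since each group is 1 array. The unnamed probe ILMN_2735350 differed between ISD and mock by 1.98 on the log2 scale in STKO cells, against -1.12 in TKO and -2.65 in WT cells. Chac1, the glutathione-degrading enzyme, differed by 1.04 in STKO cells and -1.25 in WT cells, and stood at 9.36 on STKO mock and 10.57 on WT mock. Spic, a transcription factor of red pulp macrophages, differed by 1.15 in STKO cells and -1.17 in WT cells, where it was not detected with ISD. A probe of ND5, a mitochondrial subunit of complex I, differed by -1.004 in STKO cells and 1.45 in TKO cells, in each case with 1 array of the pair not detecting it.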

How the results depend on the processing

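The number of STKO probes at 2-fold depended on how dim probes were handled, and higher probes outnumbered lower ones under each alternative run. Against 77 probes (66 higher, 11 lower), there were 23 (22 and 1) without background correction, 32 (31 and 1) with an offset of 50, 28 (27 and 1) in the authors' log2 table and 48 (46 and 2) with detection on both arrays. Median scaling gave 125 (115 higher), the 2 STKO arrays alone 96, no detection filter 77, and a 1.5-fold threshold 733 (474 and 259). The share higher was 85.7%, and 96.9% with the offset of 50 and 96.4% in the authors' table, 83.3% on the 2 STKO arrays alone and 64.7% at 1.5-fold. The STKO median of probes raised in WT cells was 0.0949, and 0.0627 without background correction, 0.0597 with the offset of 50, 0.1718 under median scaling and 0.1008 on the 2 STKO arrays alone. That of probes raised in TKO cells was 0.1267, and 0.0775, 0.075 and 0.1899 under the first 3 of these. Median scaling, with list medians added after seeing the data, turned the medians of antigen presentation (-0.0654), the macrophage list (-0.0229) and all probes (-0.0108) to 0.0145, 0.033 and 0.0866. All 39 named probes at 2-fold kept their sign in all 5 other scales, and 18 stayed at 2-fold. No paired analysis was possible because each group holds 1 array, and no array could be left out for the same reason. Probes near background are limited most.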
